A study of Mus musculus with 6 samples.

Results

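H3K4me3 peaks that were not wider after crotonate were a small minority in cultured mouse neural stem and progenitor cells, and are described here as a group. They were chosen from the deposited peak lists by 1 rule. A peak of the water list and a peak of the crotonate list formed a pair when each overlapped exactly 1 peak of the other list by at least 1 bp, and the pair was kept when the crotonate peak was no longer than the water peak. The rule found 668 pairs among 12093, from 13221 peaks in water and 16007 after crotonate. The remaining 11425 pairs were wider after crotonate, 1036 water peaks overlapped the other list without forming such a pair, and 92 had no counterpart. The share of pairs that the rule kept was 5.52%.

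The cells came from the forebrain of mouse embryos at E13.5, were grown with EGF and FGF, and were treated at passage 2 to 3 for 24 h with water (the control) or with 10 mM crotonate. No genotype or strain is named in the labels, and both groups had the same culture. The assay was CUT&Tag, in which a transposase tethered by an antibody tags the DNA beside a histone mark. Antibodies to H3K4me3 and H3K27me3 and normal rabbit IgG gave 6 samples, 1 library per antibody and treatment. The 2 IgG samples were not analysed here. Without replicates none of the differences below could be tested, and there are no p-values. Each interval is the exact (Clopper-Pearson) 95% interval of a share, and it covers counting error only.

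H3K4me3 is placed by the SET1 and MLL methyltransferase complexes around the starts of active genes and of genes held ready for activation, where it spans the first nucleosomes of the transcribed region and those before the start. H3K27me3 is placed by Polycomb repressive complex PRC2, and promoters of developmental regulators in stem and progenitor cells can carry both marks. Crotonate is a short-chain fatty acid salt, and from it cells make crotonyl-CoA, which supplies the crotonyl group added to histones.

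Of 8 markers of neural progenitors, 6 (Sox2, Nes, Hes5, Fabp7, Vim and Prom1) had an H3K4me3 peak at a gene end in water and 7 after crotonate, with Pax6 added. Of 4 markers each, 2 of neurons, 1 of astrocytes and 3 of the oligodendrocyte lineage had one in water, and 2, 1 and 4 after crotonate. None of 5 microglial markers had one in either list. Of 4 endothelial markers only Kdr had one, in both lists, and of 4 markers of fibroblasts and pericytes only Col1a1, after crotonate alone. None of these markers stood at a pair that was not wider. Of all genes with an H3K4me3 pair at an end, 5.13% stood at such a pair. Too few of the markers had a peak in water for their absence from the group to be informative. A peak at a gene is no measure of its RNA.

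The sequence before the start is shown for 4 genes that mark the range of the group. Gmcl1, which encodes a BTB-domain adaptor of a cullin ubiquitin ligase, stood at the strongest peak that held a single start of known strand. Rpn1, which encodes ribophorin I of the oligosaccharyltransferase, had the largest loss of length. Pcgf5, which encodes a subunit of a variant Polycomb complex PRC1, had the strongest such peak among those on H3K27me3 in water. That overlap was only 97 bp (4.32% of the peak), was absent after crotonate and lay outside the bases shown. 2310033P09Rik had the strongest peak whose length was the same in both lists. Each line gives the 250 bases before the annotated start, 5′ to 3′ along the gene's strand, from RefSeq (GRCm38.p6). Capitals mark exact matches, on either strand, to the 8 short motifs listed with the promoter shares below.
Gmcl1 (chr6:86733379-86733628, minus strand): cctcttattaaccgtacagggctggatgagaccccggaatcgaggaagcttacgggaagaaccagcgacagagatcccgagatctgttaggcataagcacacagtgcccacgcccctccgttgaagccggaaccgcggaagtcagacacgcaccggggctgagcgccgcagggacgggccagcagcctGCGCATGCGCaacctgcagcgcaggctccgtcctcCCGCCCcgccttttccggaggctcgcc
Rpn1 (chr6:88084223-88084472, plus strand): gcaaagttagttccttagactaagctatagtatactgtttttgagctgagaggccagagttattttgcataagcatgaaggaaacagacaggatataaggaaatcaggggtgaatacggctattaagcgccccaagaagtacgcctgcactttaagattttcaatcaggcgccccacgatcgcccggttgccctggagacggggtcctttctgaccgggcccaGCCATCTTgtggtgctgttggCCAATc
Pcgf5 (chr19:36348079-36348328, plus strand): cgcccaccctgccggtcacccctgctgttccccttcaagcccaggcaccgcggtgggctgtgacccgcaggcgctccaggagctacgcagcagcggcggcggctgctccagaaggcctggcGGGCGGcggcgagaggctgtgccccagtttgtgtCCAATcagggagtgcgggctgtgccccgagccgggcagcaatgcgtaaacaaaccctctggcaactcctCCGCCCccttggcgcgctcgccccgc
2310033P09Rik (chr11:59208111-59208360, plus strand): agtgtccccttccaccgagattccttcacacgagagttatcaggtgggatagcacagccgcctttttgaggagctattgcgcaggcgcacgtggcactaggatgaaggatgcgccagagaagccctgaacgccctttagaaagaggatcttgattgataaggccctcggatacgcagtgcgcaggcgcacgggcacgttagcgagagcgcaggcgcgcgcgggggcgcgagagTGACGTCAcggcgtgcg
Counting back from the start, Gmcl1 held overlapping NRF1 motifs whose first bases lay at −62 and −60 and a GC box at −27. Rpn1 held a YY1 motif at −27 and a CCAAT box at −6. Pcgf5 held GC boxes at −129 and −26 and a CCAAT box at −95, and 2310033P09Rik held a cyclic AMP response element at −17. The GC share was 64.8% for Gmcl1, 49.2% for Rpn1, 71.6% for Pcgf5 and 60.8% for 2310033P09Rik. A match is a stretch of letters and was not tested as a binding site.

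Most of these peaks lost little length. The median was 1513 bp in water and 1396 bp after crotonate, and the median change within a pair was −70 bp or −4.53%. The pairs that were wider had a similar median in water, 1538 bp, and 1999 bp after crotonate, with a median change of 395 bp or 26.1%. Of the 668, 14 had exactly the same length in both lists and a further 82 were shorter by 1 to 10 bp. Another 82 pairs lay just outside the rule, longer by 1 to 10 bp. In all, 356 pairs (53.3%) lost under 5% of their length, 176 (26.3%) lost at least 10% and 39 (5.84%) lost at least 25%. These lengths chose the group, so they describe it and support nothing further.

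**Figure D1:**
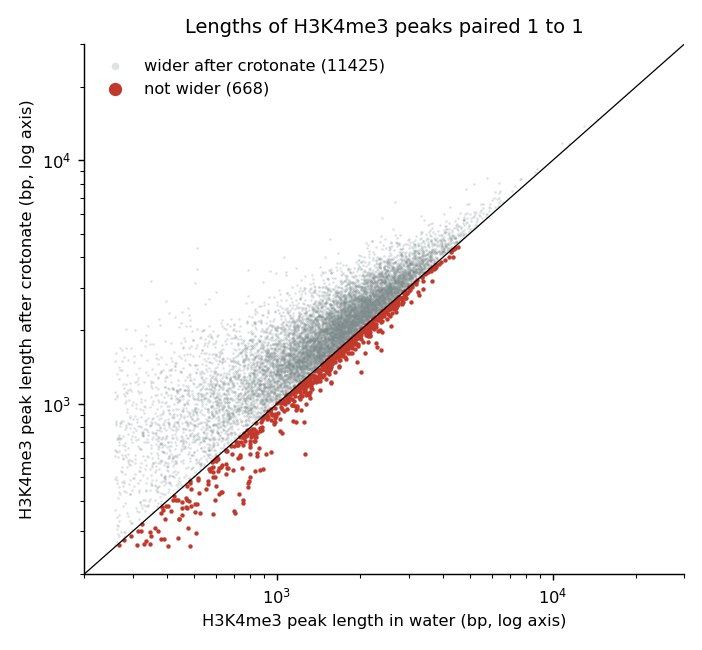
Length of each H3K4me3 peak in water (x axis, bp, log scale) against that of its counterpart after crotonate (y axis, bp, log scale) for 12093 pairs; the line marks equal length. The 668 pairs that were not wider (red) hug the line from below, with a median change of −70 bp, while the 11425 wider pairs (grey) spread far above it.

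The threshold cut through a continuous range. Just inside it lay peaks of unchanged length at Lancl2, Rabggta (a subunit of the enzyme that prenylates Rab proteins), Emc2 (a subunit of the endoplasmic reticulum membrane protein complex) and Acvr2b (an activin receptor). At these 4 genes, and at Elf2, Nkain3 and the shared promoter of Hypk and Serinc4, both edges lay on the same base in both lists, 7 pairs in all. At 2310033P09Rik the 1540-bp peak kept its length while both edges moved by −34 bp along the chromosome. At Ints3, which encodes an Integrator subunit, both edges of the 2566-bp peak moved by 183 bp. Just outside the rule, longer by 1 bp, lay Kmt5a, the H4K20 monomethyltransferase, at 1884 and 1885 bp, Nop10, a box H/ACA ribonucleoprotein, at 1538 and 1539 bp, and Cmtr1, an mRNA cap methyltransferase, at 1300 and 1301 bp.

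At least 1 edge lay on the same base in both lists in 65 of the 668 pairs (9.73%) and in 527 of the wider pairs (4.61%). Both edges lay inside or on the water edges in 237 pairs (35.5%). The other 431 shifted along the chromosome, 211 to the right and 220 to the left, with 1 edge moving outward by no more than the other moved inward. The summit stayed within 100 bp in 495 of the 668 (74.1%) and in 8327 of the wider pairs (72.9%).

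The edge inside the gene and the edge before the start make up the length that chose the group, so their changes are given as a description. They could be read at 354 pairs whose water peak held the start of exactly 1 gene of known strand. Their median distance from start to downstream edge was 1163 bp in water and 1084 bp after crotonate, and that from upstream edge to start 484 and 468 bp. The median change was −41 bp downstream and −7 bp upstream, against 208 and 145 bp in 6802 wider pairs of the same kind. The downstream edge was nearer to the start after crotonate in 244 of the 354 (68.9%) and the upstream edge in 189 (53.4%), counting as nearer also an edge that passed the start. In the wider pairs the order was the other way, with the downstream edge nearer in 404 (5.94%) and the upstream edge in 540 (7.94%). In 143 pairs the upstream edge moved outward while the downstream edge came nearer, in 89 the reverse held, and in 122 neither edge moved outward.

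**Figure D2:**
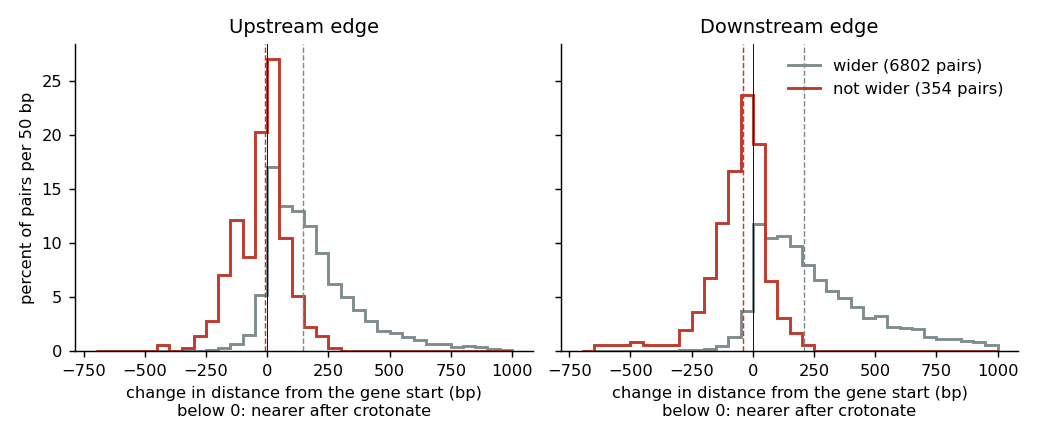
Change in distance between the annotated gene start and the upstream (left) or downstream (right) edge of the H3K4me3 peak, in bp (x axis), as percent of pairs per 50 bp (y axis), for 354 pairs that were not wider (red) and 6802 wider pairs (grey) with a single start. Dashed lines are medians, −7 and −41 bp in red and 145 and 208 bp in grey; 60 (upstream) and 213 (downstream) of the wider pairs lie beyond the axis.

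The largest losses show both patterns. Rpn1 went from 2388 bp in water to 1669 bp after crotonate, a change of −719 bp, with the upstream edge changing by −192 bp and the downstream edge by −527 bp. Smc2, which encodes a core subunit of condensin, went from 2304 to 1716 bp. Its upstream edge moved outward by 51 bp and its downstream edge changed by −639 bp. Tinf2, which encodes the shelterin subunit TIN2 at telomeres, went from 2277 to 1785 bp, with changes of 121 bp upstream and −613 bp downstream. Fbxw7, the substrate receptor of a ubiquitin ligase that targets cyclin E and Myc, went from 2085 to 1617 bp, with changes of 105 and −573 bp. At these 4 genes the greater part of the loss lay in the transcribed part of the gene.

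At other genes the loss lay before the start. Med16, a Mediator subunit, went from 1043 to 762 bp with changes of −409 bp upstream and 128 bp downstream. Desi2, a peptidase of the deSUMOylase family, went from 1147 to 849 bp with changes of −322 and 24 bp. Ermp1, an endoplasmic reticulum metallopeptidase, went from 1288 to 1106 bp, all of it upstream. Both edges came in at Denn2b, whose DENN domain activates Rab GTPases, by a change of −244 bp upstream and −394 bp downstream. The distance from its upstream edge to the annotated start was 228 bp in water and −16 bp after crotonate, so that edge passed the start. Its peak went from 1258 to 620 bp (−50.7%), the largest relative loss in the group. Its summit pileup was 26.77 in water and 25.76 after crotonate, so it also belonged to the few peaks whose pileup was lower.

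The rest of the largest losses by length or by percent were at genes of varied function. Lrrtm2, a postsynaptic adhesion protein, had peaks of 2019 and 1349 bp. Pi4ka, a phosphatidylinositol 4-kinase, and Snap29, a SNARE protein, shared a peak of 2595 and 2084 bp. Cacna1h, a T-type calcium channel, had 3272 and 2802 bp, and Shb, an adaptor of receptor tyrosine kinases, 3657 and 3208 bp. Insyn2a, a protein of inhibitory synapses, had 1253 and 842 bp, and Rmdn1, a microtubule-associated protein, 1223 and 944 bp. The peaks at Cacna1h and Insyn2a lay within 2 kb of a gene end but held none. The Insyn2a peak also overlapped Dock1, and the Lrrtm2 peak also overlapped Ctnna1. The peak at ends of both Cenpo, a centromere protein, and Ptrhd1 had 1950 and 1482 bp and was the second strongest of the group in water.

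**Figure D3:**
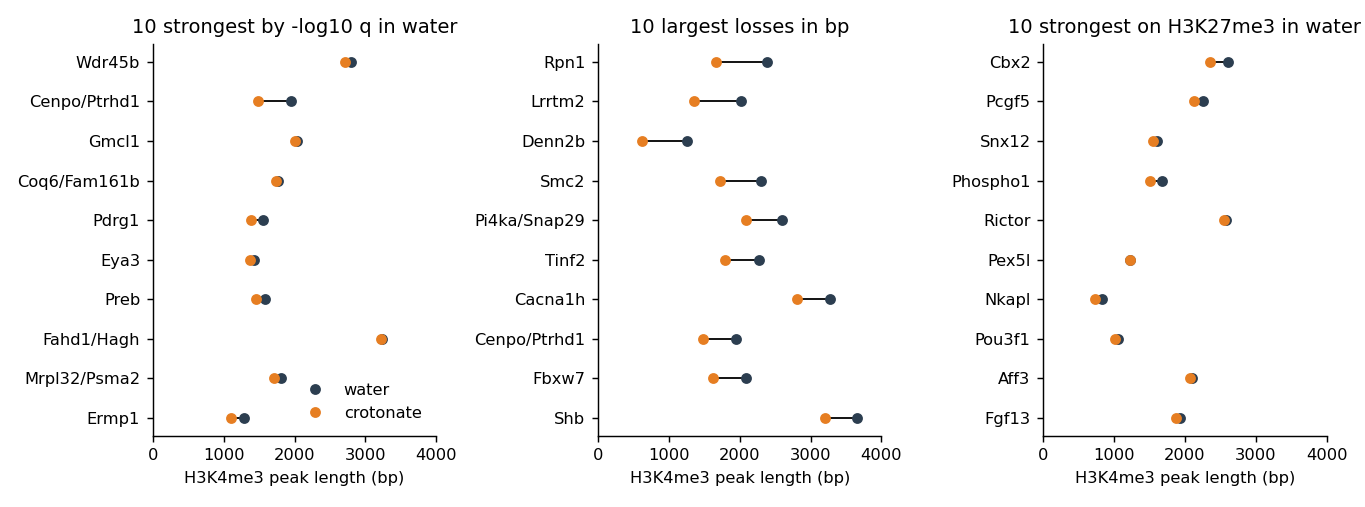
H3K4me3 peak length in bp (x axis) in water (dark) and after crotonate (orange) for the 10 strongest pairs by −log10 q in water (left), the 10 largest losses in bp (middle) and the 10 strongest on H3K27me3 in water (right). In the middle panel the gap between points is widest at Rpn1, 2388 and 1669 bp. Among the strong peaks the length barely changed at Fahd1/Hagh, 3230 and 3227 bp, and fell by 24.0% at Cenpo/Ptrhd1.

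Nearly all these peaks had a higher summit pileup after crotonate, on a scale that differed between the libraries. Summit pileup, which the authors' peak caller scaled per library, was higher after crotonate in 660 of the 668 pairs (98.8%) and in 11393 of the wider pairs (99.7%), with median ratios of 1.5 and 1.56. The deposited pileups rise in steps of 0.26 in water and 0.40 after crotonate, and these steps differ by about the same factor as the median pileups. The fragment totals are not given. Neither the ratio nor the count of pairs with a higher pileup can therefore be read as a change in occupancy. Fold enrichment over the caller's local background was higher after crotonate in 415 of the 668 (62.1%) and in 9033 of the wider pairs (79.1%). The median ratio of fold enrichment was 1.15 and 1.51. The −log10 q was higher in 552 (82.6%) and in 10782 (94.4%). Fold enrichment and −log10 q rest on the same scaled pileups and carry the same limit.

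Local background moved with the group. It was computed here from pileup and fold enrichment, on the reading that 1 is added to both terms of the ratio, and its lowest value was 0.384 in water and 0.695 after crotonate. It was higher after crotonate in 474 of the 668 pairs (71.0%) and in 6366 of the wider pairs (55.7%), and over 2 times as high in 266 (39.8%) and 2746 (24.0%). The median ratio was 1.80 and 1.04. A pair at the lowest value of both lists has a ratio of 1.81 by the floors alone, and 19 of the group (2.84%) and 250 wider pairs (2.19%) were there (within 1%). The water value was at its floor in 99 (14.8%) and 1004 (8.79%). Away from the floor in both lists, the median ratio was 1.55 in 518 pairs of the group and 1.04 in 9228 wider pairs, and the background was higher after crotonate in 70.5% and 56.1%. The share of pairs that were not wider was 2.87% (interval 2.16 to 3.74%) where the background ratio was under 0.5 and 12% (interval 9.54 to 14.8%) where it was 5 or more. Many background values were small whole numbers, with a median of 1.0 and an upper quartile of 2.0 for the group in water, so the ratio moves in coarse steps. Whether the background has the same scale in both libraries is not given, so the ratio cannot be read as a measured change. The part of local background in the lengths was not tested. At the 246 pairs of the group in which it was at most 1.2 times as high, among 6322 such pairs, the share that was not wider was 3.89%.

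**Figure D4:**
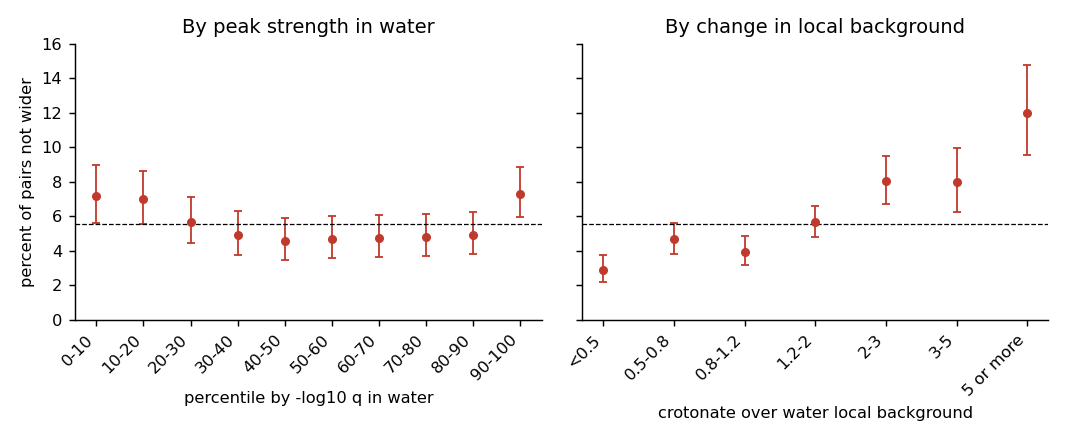
Percent of H3K4me3 pairs that were not wider after crotonate (y axis, with exact 95% binomial intervals) by percentile of −log10 q in water (left) and by the ratio of local background after crotonate to that in water (right); the dashed line is 5.52%. The share is 7.17% and 7.30% below percentile 10 and from percentile 90 of the water list, and it climbs from 2.87% to 12% with the background ratio.

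The group came from all strengths and nearly all lengths. By −log10 q its median percentile in the water list was 49.8, against 52.4 for the wider pairs. The share of pairs that were not wider was 7.17% below percentile 10 of the list, 4.57% from percentile 40 to 50 and 7.30% from percentile 90, with intervals of 5.62 to 8.98%, 3.48 to 5.88% and 5.93 to 8.87%. By water length it lay between 5.18% and 6.41% in every bin up to 5 kb, and none of the 58 pairs of 5 kb or more belonged to the group, with an interval of 0 to 6.16%. By chromosome it ran from 3.71% on chromosome 8 to 7.57% on chromosome 13 and 7.48% on chromosome X, with 0 of 3 pairs on chromosome Y.

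The strongest peak of the group, at Wdr45b, an autophagy protein that binds phosphoinositides, had 2791 bp in water and 2714 bp after crotonate, with a pileup of 83.42 and 105.85. Gmcl1 had 2038 and 2008 bp, with a pileup of 78.22 and 113.89. At Pdrg1 the peak had 1551 and 1386 bp, at Eya3, a phosphatase and transcriptional coactivator, 1430 and 1365 bp, and at Preb, the exchange factor for Sar1 at sites of export from the endoplasmic reticulum, 1576 and 1457 bp. Shared promoters included Coq6, a monooxygenase of coenzyme Q synthesis, with Fam161b at 1771 and 1744 bp, and Mrpl32 with Psma2 at 1804 and 1714 bp. Local background was 0.384 in water and 3.0 after crotonate at Eya3, and 2.07 and 9.0 at the promoter of Fahd1 and Hagh.

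Fewer of these peaks stood at a gene end than of the wider ones. A gene end was within 2 kb of the water peak in 522 of the 668 pairs (78.1%, interval 74.8 to 81.2%) and in 10025 of the 11425 wider pairs (87.7%, interval 87.1 to 88.3%). It was an annotated start where the RefSeq tables give the strand, for 17492 of 21887 protein-coding genes, and either end of the gene for the other 4395. Another 69 (10.3%, interval 8.13 to 12.9%) lay inside genes away from an end and 77 (11.5%, interval 9.20 to 14.2%) between genes, against 739 (6.47%) and 661 (5.79%) of the wider pairs. Read the other way, 4.95% of the pairs at gene ends, 8.54% of those inside genes and 10.4% of those between genes were not wider. The share inside genes was 6.28% in the group and 5.43% in the wider pairs when peaks of fold enrichment under 5 were left out of both lists. It was 6.35% and 6.04% when the crotonate list was cut to the length of the water list. It was 6.50% and 6.22% in pairs whose background was at most 1.2 times as high. The share between genes was at least 9.92% in the group in these 3 settings, against at most 5.74% in the wider pairs.

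**Figure D5:**
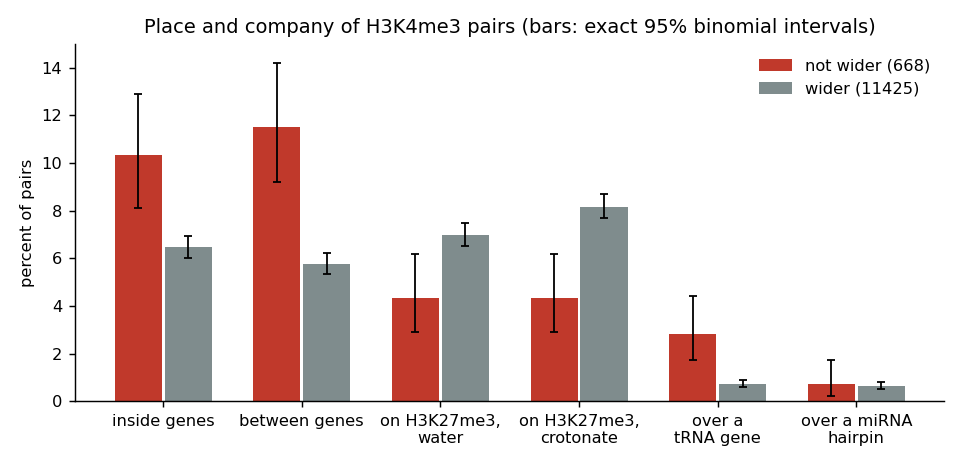
Percent of H3K4me3 pairs (y axis, bars from 0, with exact 95% binomial intervals) that lay inside genes, between genes, on H3K27me3 in water or after crotonate, over a tRNA gene and over a miRNA hairpin, for 668 pairs that were not wider (red) and 11425 wider pairs (grey). The red bar is higher between genes (11.5% and 5.79%) and over tRNA genes (2.84% and 0.735%) and lower on H3K27me3 in water (4.34% and 7.0%).

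Peaks away from gene ends were weaker. Inside genes the median was 753 bp in water and 547 bp after crotonate at a median strength percentile of 12.5. Between genes it was 881 and 833 bp at a percentile of 21.3, and at gene ends 1672 and 1568 bp at a percentile of 60.0. The strongest inside genes lay in Cracd, with 1801 and 1733 bp, Camta1, a calmodulin-binding transcription activator, with 2389 and 2157 bp, Abi2, an adaptor of the WAVE actin-regulating complex, with 1896 and 1836 bp, Vgll4, a TEAD cofactor, with 4187 and 4016 bp, and Fam91a1, with 2261 and 2257 bp. Between genes the strongest was a peak of 2247 and 2034 bp over the long noncoding RNA gene B930059L03Rik on chromosome 12. A peak of 1838 and 1753 bp on chromosome 13, 111724576 to 111726413, held no annotated gene, and one of 1317 and 1300 bp lay over the noncoding gene Gm33971 on chromosome 16. The 2 next in strength lay over tRNA genes.

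Peaks over tRNA genes, which RNA polymerase III transcribes, were more frequent in the group. The water peak covered at least 1 annotated tRNA gene in 19 of the 668 pairs (2.84%, interval 1.72 to 4.41%) and in 84 of the 11425 wider pairs (0.735%, interval 0.587 to 0.910%). Among pairs with no gene end it was 18 of 146 (12.3%, interval 7.47 to 18.8%) and 55 of 1400 (3.93%, interval 2.97 to 5.08%). Put the other way, 18.4% of the 103 pairs over tRNA genes were not wider (interval 11.5 to 27.3%), and the 103 together had a median change of 16.3%. This feature was singled out after its values had been seen. Among the pairs that lost at least 10% of their length the share over tRNA genes was 1.7% (interval 0.353 to 4.90%), against 0.839% of all other pairs. Of pairs with neither a gene end nor a tRNA gene, 128 of 1473 (8.69%) were not wider, above the 4.95% at gene ends.

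Many of the tRNA pairs of the group lay on 1 chromosome. On chromosome 13, whose tRNA genes number 105 of the 408 in the table, 10 of 30 tRNA pairs (33.3%, interval 17.3 to 52.8%) were not wider. On the other chromosomes it was 9 of 73 (12.3%, interval 5.79 to 22.1%). Away from tRNA genes, 28 of 472 pairs on chromosome 13 (5.93%) were not wider. On chromosome 13 the strongest, over the leucine tRNA gene n-TLcaa1 at 21199704 to 21200964, had 1261 bp in water and 1166 bp after crotonate. The next, over the alanine tRNA gene n-TAagc16, had 1865 and 1858 bp. The largest relative loss, −13.8%, was over the valine tRNA gene n-TVcac8, with 976 and 841 bp. Elsewhere, a peak over the proline tRNA genes n-TPagg5 and n-TPtgg7 on chromosome 3 had 1760 and 1752 bp, and one over the arginine tRNA gene n-TRccg1 on chromosome 11 had 1406 and 1241 bp. The only one at a gene end overlapped Hes7 and had ends of Hes7 and Aloxe3 within 2 kb. It covered n-TLtag3 and n-TRtct4, with 3709 and 3595 bp. tRNA genes occur in near-identical copies, and how reads that fit several copies were counted is not given in the sources used here. A median background ratio of 1.81 was found in the 19 and of 1.00 in the 84 wider tRNA pairs, and its part was not tested. Away from the floors it was 1.67 in 15 and 1.00 in 75. Where that ratio was at most 1.2, 6 of 59 tRNA pairs (10.2%, interval 3.82 to 20.8%) were not wider.

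Long noncoding RNA genes and miRNA hairpins were also counted. Long noncoding RNA genes lay under 97 peaks of the group (14.5%) and 1745 of the wider pairs (15.3%). Among pairs with no gene end it was 43 (29.5%, interval 22.2 to 37.5%) and 362 (25.9%, interval 23.6 to 28.2%). A miRNA hairpin lay under 5 (0.749%, interval 0.244 to 1.74%) and 75 (0.656%). The 5 were Mir423 at Nsrp1, with 1681 and 1663 bp, Mir7236 at Rab40b, with 1495 and 1468 bp, Mir6976 at Srf (serum response factor), with 4382 and 4301 bp, Mir8101 at Hdac5 (a class IIa histone deacetylase), with 3658 and 3629 bp, and Mir1199 at Misp3, with 733 and 606 bp.

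Fewer peaks of the group lay on H3K27me3, a mark the rule did not use. In water the overlap was 29 of 668 (4.34%, interval 2.93 to 6.18%) and 800 of 11425 wider pairs (7.0%, interval 6.54 to 7.49%). After crotonate it was again 29 (4.34%) and 934 (8.18%, interval 7.68 to 8.69%). Weak H3K4me3 peaks carried H3K27me3 more often, and the gap lay among them. Below percentile 10 of the water list 7.25% of the group and 25.1% of the wider pairs overlapped it, from 10 to 20 it was 12.7% and 19.9%, and from 20 to 30 it was 7.25% and 13.2%. By length, 1 of 46 peaks of the group under 500 bp (2.17%) and 17.4% of the wider ones overlapped it. From 2 to 3 kb it was 3.36% and 2.44%. Over the pairs whose background ratio was at most 1.2, the share in water was 1.63% (interval 0.445 to 4.11%) in the group and 5.76% in the wider pairs. Among the pairs that lost at least 10% of their length it was 6.82% (interval 3.57 to 11.6%), against 6.86% of all other pairs.

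In 24 pairs of the group the overlap was present in both treatments, in 5 in water alone and in 5 after crotonate alone. Over all 12093 pairs, overlap in water alone held for 0.595% and overlap after crotonate alone for 1.70%. In the group both shares were 0.749% (interval 0.244 to 1.74%), which includes both values. In the wider pairs they were 0.586% and 1.76% (interval 1.53 to 2.02%), and the second of these lies just above the interval of the group. Overlap in water alone was seen at Rictor, the defining subunit of the kinase complex mTORC2, at Pcgf5, Rasgef1a and Snx12, and inside Kcnj12. Overlap after crotonate alone was seen at Acer3, a ceramidase, Slc7a2, a transporter of basic amino acids, and Vbp1, a prefoldin subunit. It was also seen at the peak shared by Ccdc87 and Ccs and at a tRNA locus of chromosome 13. Where overlap was seen in water alone, the covered part of the H3K4me3 peak ran from 4.32% (97 bp) at Pcgf5 to 75.2% inside Kcnj12.

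Among the pairs on H3K27me3 were regulators of development. A peak within 2 kb of Pou3f1, a POU transcription factor of neural cells, lay outside that gene and over the noncoding gene Gm2164. It had 1048 and 1010 bp of H3K4me3 within a single H3K27me3 peak, 12.6 kb long in water and 15.7 kb long after crotonate. Another, within 2 kb of Wnt4, a secreted signalling protein, and also outside the gene, had 596 and 594 bp within 4.92 and 11.3 kb of H3K27me3. At Bcor, a corepressor found in variant PRC1, the H3K27me3 peak spanned 11.1 and 16.1 kb. Insm2, a zinc finger factor, had H3K4me3 peaks of 913 and 621 bp within 3.75 and 4.10 kb, and Nkx1-2, a homeobox factor, 881 and 783 bp within 3.80 and 2.87 kb. The H3K4me3 peak was narrower by 2 bp at Wnt4, where the H3K27me3 peak was longer after crotonate, and by 98 bp at Nkx1-2, where it was shorter.

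The stronger H3K4me3 peaks of this kind were mostly covered by H3K27me3 in part. Cbx2, the PRC1 subunit that reads H3K27me3, had 2610 and 2352 bp of H3K4me3, of which 17.4% was covered in water. Phospho1, a phosphatase of bone mineralization, had 1671 and 1512 bp with 68.9% covered, and Pex5l, a regulator of HCN channels, 1221 and 1218 bp with 65.7% covered. Rictor had 2576 and 2550 bp with 17.2% covered, Snx12, a sorting nexin, 1609 and 1543 bp, and Fgf13, an intracellular regulator of sodium channels, 1930 and 1870 bp. Nkapl had 833 and 728 bp, all of it covered. Aff3, a subunit of transcription elongation complexes, had 2097 and 2074 bp, and its 2 H3K27me3 peaks covered 29.9% and 38.2% of the H3K4me3 peak, at its ends.

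Genes at these peaks were read against lists chosen with earlier results of these data known. An H3K4me3 pair lay at an end of 11435 genes, and for 587 of them (5.13%) it was a pair that was not wider. No list of developmental genes had one. It was 0 of 17 neural stem and progenitor genes, 0 of 15 neuronal differentiation genes, 0 of 7 genes of the ventral forebrain and interneurons, 0 of 8 astrocyte and oligodendrocyte genes and 0 of 34 developmental signalling genes. Together that was 0 of 80 different genes, beside the 5.13% of all genes with a pair, and the difference was not tested. The 80 are those of 135 listed genes that had a pair, and the 0 holds for these lists alone. Developmental genes that are not on them, among them Wnt4, Pou3f1, Nkx1-2, Insm2, Acvr2b and Hes7, stood at pairs that were not wider. The peaks at Wnt4 and Pou3f1 lay near but outside those genes. In the developmental lists the median change in length at pairs ran from 9.19% (neuronal differentiation) to 49.2% (astrocytes and oligodendrocytes). Over all genes with a pair it was 23.8%. None of 25 immediate early and stress genes was at such a peak either.

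Genes of chromatin, replication and protein turnover were represented. Of 42 Polycomb and trithorax genes, 4 were at a pair that was not wider (9.52%). They were Cbx2, Pcgf5 with 2248 and 2132 bp, Pcgf6, another subunit of variant PRC1, with 1684 and 1416 bp, and Ezh1, a PRC2 methyltransferase, with 1060 and 1032 bp. A second peak at Pcgf5 was longer by 2 bp, at 1273 and 1275 bp. Of 43 proteasome subunit genes, 5 were at such a pair (11.6%), namely Psma2, Psmd11 with 1930 and 1887 bp, Psmd9 with 920 and 863 bp, Psmd10, whose promoter with Atg4a had 1409 and 1377 bp, and Psmd4 with 1624 and 1611 bp. Of 31 DNA replication genes there were 3 (9.68%): the clamp loader subunits Rfc2, with 1280 and 1186 bp, and Rfc4, with 2074 and 2043 bp, and the helicase subunit Mcm5, with 2485 and 2373 bp. Each of these 3 counts lay within 3 genes of 5.13% of its list.

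The remaining lists were near that share or under it. Of 65 splicing factor genes 4 (6.15%) were at such a pair, Snrpe with 1418 and 1298 bp, Hnrnpd with 3923 and 3827 bp, Prpf18 with 1282 and 1196 bp and Hnrnpu with 3662 and 3594 bp. Of 86 genes of the respiratory chain and ATP synthase 4 (4.65%) were, Cox8a with 2017 and 1994 bp, Atp5k with 1753 and 1676 bp, Cox7c with 1454 and 1283 bp, and Ndufs3, whose promoter with Kbtbd4 had 2440 and 2304 bp. Of 323 Zfp zinc finger genes it was 15 (4.64%), the strongest of them Zfp712 with 1482 and 1475 bp, Zfp655 with 1934 and 1856 bp, Zfp605 with 972 and 903 bp and Zfp422 with 1560 and 1540 bp. Of 78 ribosomal protein genes it was 2 (2.56%), Rpl37 at 2933 and 2855 bp and Rps14 at 2522 and 2435 bp. Single genes were Ccnb1 (cyclin B1) among 25 cell cycle genes, with 2233 and 2224 bp, and Fdps (farnesyl diphosphate synthase) among 23 genes of sterol and fatty acid synthesis, with 2665 and 2454 bp. Among 31 genes of crotonyl-CoA metabolism and crotonylation it was Ep300, the acyltransferase p300 that can crotonylate histones, with 3733 and 3618 bp. None of 1106 olfactory receptor genes had an H3K4me3 pair.

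Promoter sequence was much alike in both sets. In the 250 bases before the start, the median GC share was 60.0% for the 354 promoters of the group and 61.6% for the 6802 of wider pairs, with 16 and 17 CpG dinucleotides and ratios of observed to expected CpG of 0.756 and 0.762. The GC box (GGGCGG) was in 64.4% (interval 59.2 to 69.4%) and 66.3% of them, against 32.7% of all 32851 promoters in the table. The CCAAT box (CCAAT) was in 37.3% and 36.3% (all promoters 33.8%). The ETS motif (CCGGAAGT) was in 7.63% (interval 5.09 to 10.9%) and 5.72% (2.88%), the NRF1 motif (GCATGCGC) in 3.95% and 5.20% (2.26%) and the TATA box (TATAAA) in 5.37% and 5.18% (12.4%). The YY1 motif (AAGATGGC) was in 2.54% and 1.48% (1.57%), the cyclic AMP response element (TGACGTCA) in 2.54% and 3.00% (1.55%) and the ZBTB33 motif (CTCGCGAG) in 1.98% and 1.68% (0.761%). Both strands were searched, and an NRF1 match can overlap another on the opposite strand. For all 8 motifs the intervals of the 2 sets overlapped. Pairs of divergent starts lay in 26 peaks of the group (3.89%, interval 2.56 to 5.65%) and 609 of the wider pairs (5.33%).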

How the data were processed

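H3K4me3 and H3K27me3 CUT&Tag peaks of 4 libraries, 1 per mark and treatment, were read as deposited. Per the submitters' processing notes, Bowtie2 2.4.1, SAMtools 1.10, Picard 2.22.0, MACS2 2.2.7.1 and GRCm38 were used. For settings, duplicate handling and the background library: not given in the sources used here. Per the file headers, each peak has a 1-based start and end, length, summit, pileup (a signal scaled per library by the authors' caller), −log10 p and −log10 q, and fold enrichment (a linear ratio). The lists hold 21.4 Mb (H3K4me3) and 20.7 Mb (H3K27me3) in water, and 29.4 and 33.0 Mb after crotonate. Fragment totals are not given, so depth is unknown, and peak length depends on depth and background.

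Peaks were paired with code in Python 3.11.15 (numpy 2.4.6, pandas 2.3.3, scipy 1.17.1, figures with matplotlib 3.10.9), checked on simulated peaks, and bedtools 2.31.1 found the same 13157 overlaps. Local background was solved from the deposited fold enrichment with 1 added to both terms, a reading on which the headers are silent. With it, −log10 p was recomputed within 1% for at least 99.49% of peaks in every list. Genes and promoters came from RefSeq tables of GRCm38.p6, 1 start per gene. A pair inside a gene had no gene end within 2 kb.

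The group, its comparisons and the 19 gene lists were chosen with earlier results of these data known. Named genes were the 10 strongest by −log10 q in water, the 10 largest losses in bp and in percent (water peaks of at least 1 kb), the 10 strongest on H3K27me3, up to 4 per list, and the 5 strongest inside and between genes. Other genes named (those near the threshold, with tRNA or miRNA genes, Psmd4, and further ones on H3K27me3) were picked once their values had been seen. The clustered histone list matched no symbol of the table, and 1 gene of 17 markers of microglia, vessels and fibroblasts had a pair, a wider one. With 1 library per group no test was made. Alternatives were 50% reciprocal overlap, fold enrichment of at least 5, lists of equal length, a loss of at least 10%, a 1 kb window and 50% cover by H3K27me3, and, added after seeing the data, both ends of every gene, a limit on local background and leaving out pairs at its lowest value.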

Additional observations from a re-analysis of the deposited data

How the results depend on the processing

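Of 58 recomputed values, 33 stayed within the interval of the reported value (within 1.5 times for the count), 23 moved beyond it and 2 changed the order of the group and the wider pairs. With 50% reciprocal overlap 681 pairs were not wider, 5.96% of pairs. With fold enrichment of at least 5 in both lists, 83.8% of the group lay at a gene end and 6.28% inside genes. With lists of equal length these were 83.2% and 6.35%, and the strength percentile was 53.9, now above the 53.2 of the wider pairs. Keeping pairs that lost at least 10% left 176, 1.46% of pairs, with 61.4% at a gene end, 19.9% inside and 18.8% between genes, 6.82% on H3K27me3 in water and 6.82% after crotonate, and a strength percentile of 22.0. Counting both ends of every annotated gene span, an alternative added after seeing the data, put 14.1% inside genes. The other added alternative kept pairs whose local background was at most 1.2 times as high. It left 246, 3.89% of pairs, with 82.5% at a gene end, 6.50% inside genes, 1.63% on H3K27me3 in water and 2.44% after crotonate, and a strength percentile of 48.6 against 47.8 for the wider pairs. The cause of these shifts was not tested. The share between genes and the share over tRNA genes were above those of the wider pairs in every setting run on them, but with a loss of at least 10% the tRNA share was 1.7%, with an interval (0.353 to 4.90%) that holds the 0.839% of the other pairs. No paired analysis was possible because each mark and treatment has 1 library and no test was made. Depth limits every length: without fragment totals or replicates, a change of a few bp cannot be told apart from the spread between libraries.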
